A study of Bos taurus with 8 samples.

Results

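Zinc finger genes carrying the ZNF name followed by a number were examined in bovine embryonic stem cells (bESCs). Members were the genes whose symbol had this form and that had at least 10 reads in each of the 8 libraries. Of 294 such symbols among 32637 genes with values, 271 were members and 23 fell under 10 reads in at least 1 library. The reads that chose the members are also those compared below, so their presence and level are a description; the threshold was the same in both conditions and did not use the difference between them. Inside it, ZNF185 had a lowest count of 10, ZNF365 of 11 and ZNF567 of 14, while ZNF514, ZNF404 and ZNF33B, just outside it, had a lowest count of 8.

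The libraries came from 4 bESC lines, A, C, D and E, all labelled XX and all kept at 5% oxygen. Each line was sequenced once on irradiated mouse embryonic fibroblasts (MEF; passages 15 to 17) and once feeder-free on vitronectin (passages 20 to 22). The medium was NBFR, which contains FGF2 and the WNT pathway inhibitor IWR-1. The sample titles write NBFRA in both conditions, while the study's methods describe Activin A as added for feeder-free culture, so whether the MEF cultures also received it is unclear. The study mentions sequencing batches and applied no correction for them. How the batches fell over these 8 libraries is not known here. Removal of the feeders, the coating, the later passages and any addition of Activin A went together in this design and cannot be told apart. In bulk RNA, fewer cells of a type and less RNA per cell cannot be told apart either. Totals ran from 44268717 to 102351560 reads, with feeder-free line D the deepest. Of the pluripotent cell markers, 8 were in the table and none was at 0, and their summed level was 5455 to 6050 CPM (reads of a gene scaled by the library's total and its TMM factor) on MEF and 4678 to 5299 CPM feeder-free. The log2 fold change was below 0 for 7 of these 8 markers, with a median of -0.32. In 4 of 4 lines 6 of 8 were lower feeder-free, against 20.7% of all tested genes and 27.5% of those at 30.2 to 719 CPM. None was called in the unpaired test described below, and 1 was called lower with the line as a block, as were 4.53% of all tested genes. The 12 fibroblast markers summed to 335 to 448 CPM on MEF and 165 to 1145 CPM feeder-free. Of 10 trophoblast markers CDX2, PAG2 and IFNT2 were at 0 in every library, with sums of 186 to 331 CPM on MEF and 213 to 1004 CPM feeder-free, and of 8 hypoblast markers AFP was at 0, with sums of 4.99 to 15.4 and 4.19 to 7.56 CPM. The 6 neural markers summed to 232 to 405 and 244 to 467 CPM. The median log2 fold change was 0.52 over 11 fibroblast markers tested and 0.53 over 6 trophoblast markers. It was -0.68 over 3 hypoblast and -0.11 over 4 neural markers. None of these was called in the unpaired test. With the block 2 fibroblast and 2 trophoblast markers were called higher, against 5.52% of all tested genes. In each of these 2 lists 1 was called lower, against 4.53%. The part of these cell types in the ZNF values was not tested, nor was that of mouse feeder reads in the MEF libraries.

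Most ZNF proteins hold an array of C2H2 fingers, each a small fold around a zinc ion that reads a few bases of DNA. Many also carry a KRAB domain, which binds TRIM28 and through it the histone methyltransferase SETDB1 and the HP1 proteins, and this complex silences transposable elements in early embryos and pluripotent cells. Other ZNF proteins bind promoters, recruit co-repressors such as CtBP or NuRD, or act on RNA and ribosomes. The KRAB genes of mammals multiplied by duplication and often lie side by side.

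The median member had a mean of 18.4 CPM, close to the 17.7 CPM of all 15744 genes tested. Reads were not divided by transcript length, so CPM orders genes by reads and not by transcripts. A mean of at least 100 CPM was reached by 17 members, and 39 were under 5 CPM. All 271 passed the filter on low counts. ZNF215 had the most reads, with 676, 911, 964 and 523 CPM in lines A, C, D and E on MEF and 813, 757, 635 and 472 CPM feeder-free. The groups overlapped, and ZNF215 overlaps the olfactory receptor genes OR2D3 and OR2D2 in the annotation. ZNF207, a microtubule-binding protein of the mitotic spindle, followed at 349 ± 26.3 CPM on MEF and 316 ± 19.8 CPM feeder-free (SD, n = 4). ZNF219, ZNF462 and ZNF532 came next, at 235 ± 32.4, 225 ± 50.6 and 219.9 ± 38.0 CPM on MEF and 177 ± 30.4, 157 ± 37.3 and 147 ± 27.8 CPM feeder-free (SD, n = 4), and all 3 were lower feeder-free in 4 of 4 lines without being called. The member with the fewest reads was ZNF619, at 0.988 ± 0.625 CPM on MEF and 0.417 ± 0.125 CPM feeder-free (SD, n = 4).

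To ask how ZNF genes behaved when the feeders were removed, feeder-free libraries were compared with MEF libraries. The median log2 fold change was -0.17 over the members and 0.01 over all tested genes. It was below 0 for 194 members (71.6%) against 49.4% of all tested genes, and above 0 for 77. The members ran from -1.34 to 0.98. The rule left out genes with few reads in any library, which limits this range. With the tested ZNF symbols under the threshold included, it was -2.51 to 2.90. The lower median was found under each scaling of the libraries. It was -0.16 with relative log expression factors and -0.13 with no scaling beyond the library total. The median of all genes was 0.02 and 0.05 there.

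Within lines, the median log2 ratio of the members was -0.10 in line A, -0.18 in line C, -0.23 in line D and -0.22 in line E. The members lower feeder-free made up 57.6%, 74.5%, 71.2% and 66.1% in lines A, C, D and E, against 49.1% to 50.4% of all tested genes. Line A thus showed the smallest shift. In 4 of 4 lines, 98 members were lower (36.2%) against 20.7% of all tested genes, and 26 were higher (9.59%) against 20.2%. The other 147 members were split between lines. As a share of all reads, the members took 0.888%, 1.03%, 1.05% and 0.934% in lines A, C, D and E on MEF and 0.856%, 0.869%, 0.808% and 0.805% feeder-free. The feeder-free shares were all below the MEF shares, with no scaling factor beyond the library total.

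**Figure D1:**
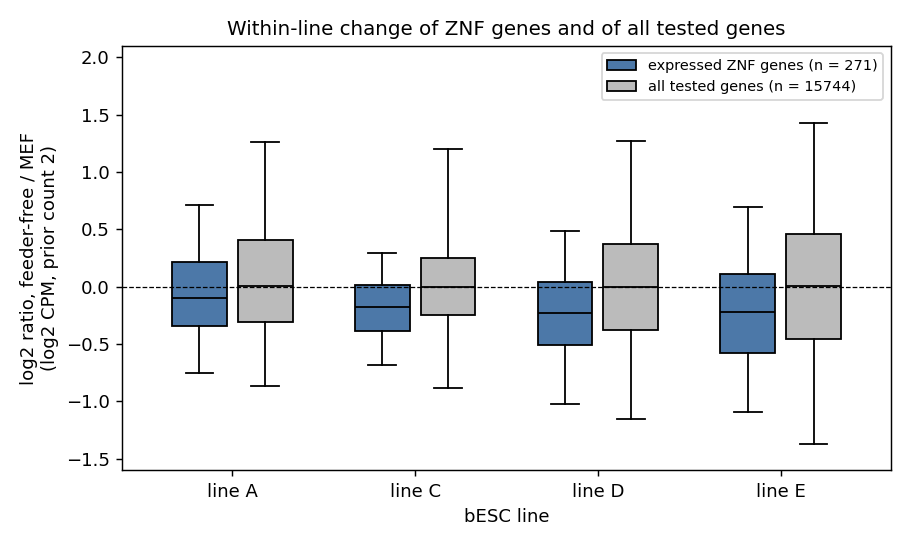
Log2 ratio of feeder-free over MEF (y axis, from log2 CPM with a prior count of 2) in each bESC line (x axis), for the 271 expressed ZNF genes and all 15744 tested genes. The box is the middle 50% of genes, the line the median and the whiskers the 5% and 95% points; the ZNF median lies below 0 in each line, from -0.10 in line A to -0.23 in line D, while the median of all genes lies at 0.01 or less from 0.

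The shift was larger among members with more reads. The 91 members with the lowest mean CPM had a median log2 fold change of -0.11 and the 90 with the highest had -0.30, while all tested genes in the same CPM ranges had 0.02 and -0.02. Of the 90 highest members, 50 were lower in 4 of 4 lines (55.6%), against 27.5% of all tested genes in that range. Of the 91 lowest members, 21 were (23.1%), against 17.3%. Members that overlap no other annotated gene had a median of -0.18 (178 genes) and those that overlap one -0.15 (93 genes).

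Single genes passed the test in small numbers. A gene was called at an adjusted p under 0.05 in edgeR's quasi-likelihood test and a fold change of at least 1.5. Of the 271 members, 1 was called higher feeder-free (0.369%, against 0.724% of all tested genes) and 7 were called lower (2.58%, against 1.00%). With no scaling beyond the library total 3 were called lower, and 91 over all tested genes. With any fold change, 11 members had an adjusted p under 0.05, 10 of them lower, and 1.93% of all tested genes did. Unadjusted p was under 0.05 for 68 members lower (25.1%, against 11.4% of all tested genes) and for 6 higher (2.21%, against 10.2%). In 52 members the feeder-free libraries lay below every MEF library (19.2%, against 8.36% of all tested genes), and in 6 above (2.21%, against 6.21%).

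With the line as a block, so that each line was compared with itself, 22 members were called lower (8.12%, against 4.53% of all tested genes) and 3 higher (1.11%, against 5.52%). All 8 calls of the unpaired test were among these. With any fold change, 49 members had an adjusted p under 0.05 lower and 3 higher in this fit, against 8.12% and 7.67% of all tested genes. Without both libraries of line D, 12 were called lower and 1 higher, while the calls over all tested genes went from 713 to 366 lower and from 869 to 376 higher. The 15 added lower calls were ZNF641, ZNF395, ZNF292, ZNF521, ZNF483, ZNF296, ZNF772, ZNF333, ZNF599, ZNF572, ZNF319, ZNF805, ZNF609, ZNF672 and ZNF12, and the 2 added higher calls were ZNF114 and ZNF165. ZNF296 takes part in the reprogramming of somatic cells to pluripotency in mice.

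**Figure D2:**
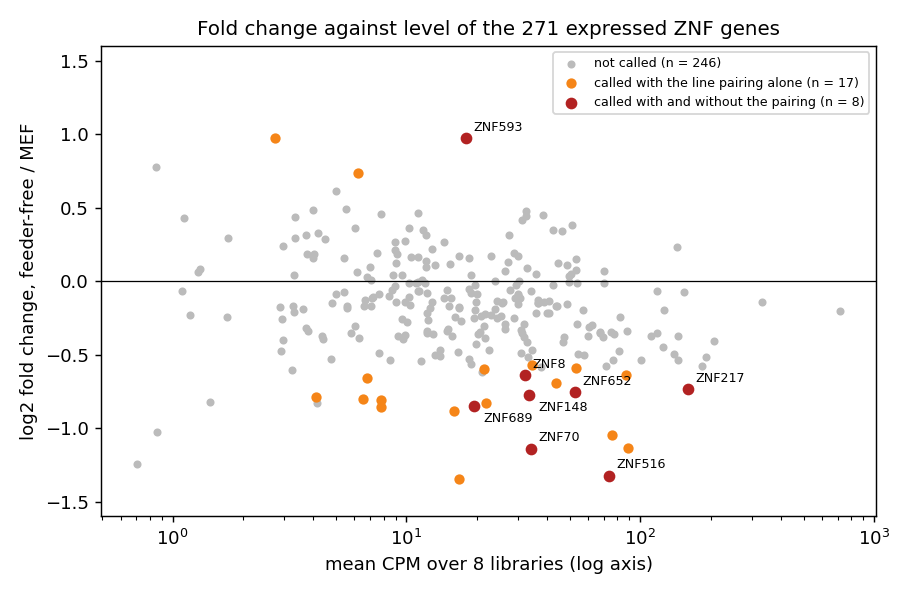
Log2 fold change of feeder-free over MEF (y axis) against mean CPM over the 8 libraries (x axis, log scale) for the 271 expressed ZNF genes. Red points are the 8 genes called with and without the line pairing, orange points the 17 called with the pairing alone and grey points the other 246; 194 genes lie below 0, and 1 of the 8 red points, ZNF593, lies above it.

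Among the 7 genes called lower feeder-free in the unpaired test, the largest fall was in ZNF516, a CtBP-binding protein known for its part in brown fat development (chr24:2551226-2651584, ARS-UCD2.0). Its levels were 119.8, 109, 98.8 and 92.9 CPM in lines A, C, D and E on MEF and 61.3, 42.6, 22.9 and 41.4 CPM feeder-free. The groups did not overlap, and line D fell the most. The log2 fold change was -1.32 (SE 0.255, edgeR adjusted p = 0.0412).

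ZNF70, on chr17:71211568-71219904, had 49.6, 41.0, 35.8 and 61.8 CPM on MEF and 22.1, 22.5, 16.5 and 24.3 CPM feeder-free in the same order of lines. All feeder-free values were under all MEF values (log2 fold change -1.14, SE 0.195, edgeR adjusted p = 0.0331). ZNF689, on chr25:26756301-26760550, had 24.8, 25.1, 22.7 and 27.5 CPM on MEF and 12.3, 15.6, 14.7 and 13.0 CPM feeder-free. The 4 lines lay close together within each condition, and the log2 fold change was -0.85 (SE 0.138, edgeR adjusted p = 0.0331).

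ZNF148, a factor that binds GC-rich promoters, lies on chr1:69681021-69827618. It had 40.4, 38.8, 44.8 and 44.9 CPM on MEF and 31.2, 24.0, 21.9 and 21.6 CPM feeder-free. Line A kept the highest feeder-free level (log2 fold change -0.78, SE 0.146, edgeR adjusted p = 0.0399). ZNF652, a partner of the co-repressor CBFA2T3 on chr19:37239583-37307728, had 61.7, 65.5, 63.6 and 73.5 CPM on MEF and 45.7, 42.8, 30.3 and 37.9 CPM feeder-free. Line D was again the lowest (log2 fold change -0.76, SE 0.142, edgeR adjusted p = 0.0399).

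ZNF217, a CtBP-binding repressor known as an oncogene in human breast cancer, was the called gene with the most reads (chr13:81114531-81153672). It had 187, 186, 201 and 231 CPM on MEF and 127, 123, 113 and 121 CPM feeder-free, a gap wider than the spread among lines (log2 fold change -0.74, SE 0.113, edgeR adjusted p = 0.0331). ZNF8, on chr18:65600794-65612508, is a KRAB protein that binds SMAD proteins of the BMP pathway. It had 36.3, 39.8, 39.8 and 41.2 CPM on MEF and 24.1, 28.9, 23.1 and 24.8 CPM feeder-free, with a log2 fold change of -0.64 (SE 0.117, edgeR adjusted p = 0.0391).

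The higher gene was ZNF593, whose short protein has a part in assembly of the large ribosomal subunit. It lies on chr2:126929533-126930613 and overlaps ZNF593OS and C2H1orf232. It had 11.2, 14.6, 11.7 and 10.9 CPM on MEF and 26.9, 18.4, 25.0 and 25.0 CPM feeder-free. Line C changed least and the groups did not overlap (log2 fold change 0.98, SE 0.170, edgeR adjusted p = 0.0346). Each of these 8 calls was lost when any 1 library other than feeder-free line A was left out, with adjusted p up to 0.126 and no change of direction, and all 8 passed without feeder-free line A.

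**Figure D3:**
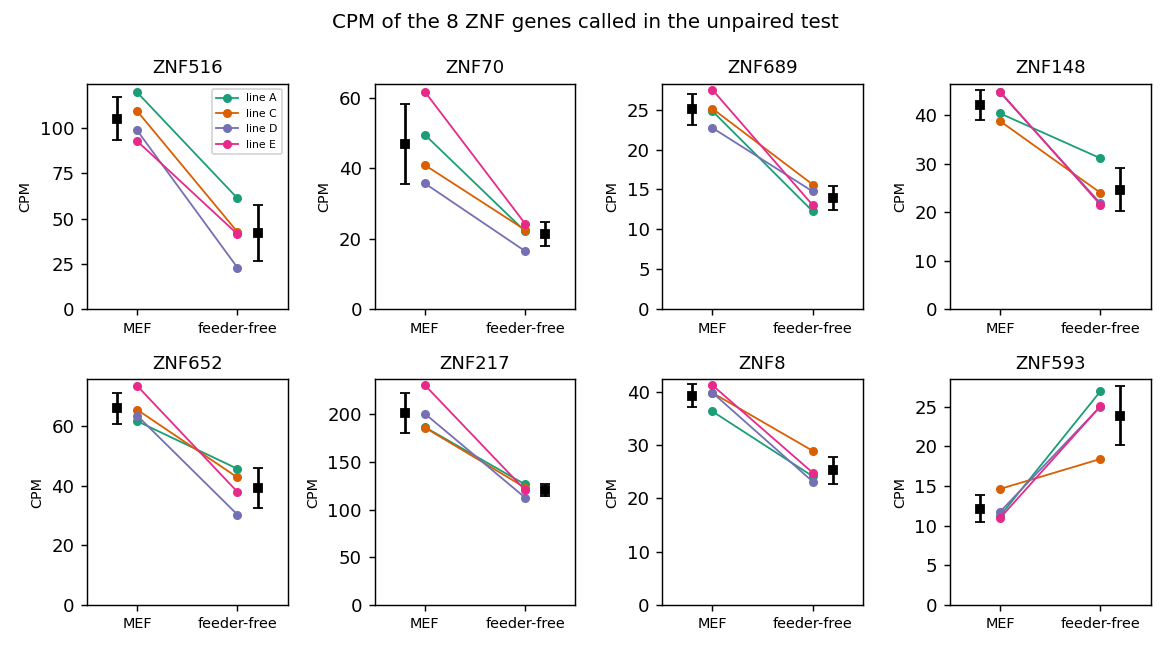
CPM (y axes, from 0) of the 8 ZNF genes called in the unpaired test, on MEF and feeder-free. Coloured points joined by a line are the libraries of 1 bESC line, and black squares with bars the mean ± SD of the 4 lines; in each of the 7 lower genes all 4 feeder-free libraries lie below all 4 MEF libraries, and in ZNF593 they lie above.

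Other members had differences as large without passing the unpaired test. The falls with the same sign in 4 of 4 lines included ZNF641, at -1.34 (SE 0.295, edgeR adjusted p = 0.0509), ZNF619, at -1.25 (SE 0.539, adjusted p = 0.219), and ZNF395, at -1.14 (SE 0.279, adjusted p = 0.0624), on the log2 scale. ZNF395 had 130.5, 79.4, 93.8 and 183 CPM on MEF and 61.5, 57.0, 36.3 and 66.4 CPM feeder-free, without overlap. On the side of higher values, ZNF165, a SCAN domain gene of the testis, had 1.82, 2.02, 1.78 and 1.81 CPM on MEF and 3.89, 2.77, 5.09 and 2.83 CPM feeder-free. Its log2 fold change was 0.97 (SE 0.276, edgeR adjusted p = 0.0871, and 0.0483 with the block). ZNF365, ZNF114 and ZNF583 had log2 fold changes of 0.78, 0.74 and 0.61, with edgeR adjusted p of 0.323, 0.333 and 0.206.

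The members with known roles were read as groups. Of 7 members tied to the pluripotent state, ZNF217 was called lower and none higher, against 1.00% and 0.724% of all tested genes. The block added ZNF521, where 4.53% of all tested genes were called lower, and the median log2 fold change was -0.52. In 4 of 4 lines 4 of 7 were lower, against 36.2% of all members. Of the 90 members with the most reads 55.6% were, with a median of -0.30. ZNF398, which supports pluripotency downstream of TGF-beta signalling in human cells, had 39.0 ± 2.64 CPM on MEF and 27.2 ± 3.11 CPM feeder-free (SD, n = 4; log2 fold change -0.52, edgeR adjusted p = 0.0594). ZNF462, a regulator of chromatin in neural development, had a like value of -0.52 (adjusted p = 0.194). ZNF281, a partner of the core pluripotency factors, had 121 ± 19.7 and 115 ± 12.8 CPM (SD, n = 4; -0.07, adjusted p = 0.837). ZNF143, a promoter-binding factor, and ZNF706, which restrains self-renewal of mouse cells, were at -0.23 and 0.00 (adjusted p = 0.510 and 0.993). The lowest value of the group was -0.88 in ZNF521, an early neural regulator (adjusted p = 0.157).

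Of 9 members that work with heterochromatin, imprints or histone methylation, none was called with or without the block, and unadjusted p was under 0.05 for 1 in each direction. ZNF445, which guards genomic imprints, had 119 ± 12.2 CPM on MEF and 82.2 ± 4.46 CPM feeder-free (SD, n = 4). Its log2 fold change was -0.54 (edgeR adjusted p = 0.0486), short of the fold threshold. ZNF131 stood highest of the group at 0.32 (adjusted p = 0.189), with ZNF274, which recruits SETDB1 to the ends of ZNF genes, at 0.19 (adjusted p = 0.638). ZNF644, ZNF711, ZNF24, ZNF202, ZNF518B and ZNF518A lay between 0.07 and -0.20, with adjusted p of 0.368 or more.

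Of 8 members listed for a link to NuRD or ZMYND8, none was called in the unpaired test. ZNF609 was called lower with the block, against 4.53% of all tested genes. The median was -0.30. In 4 of 4 lines 5 of 8 were lower, against 36.2% of all members and 20.7% of all tested genes. Among the 90 members with the most reads the median was also -0.30, and 55.6% were lower in 4 of 4 lines. ZNF609 had 63.8 ± 6.27 CPM on MEF and 42.3 ± 7.09 CPM feeder-free (SD, n = 4; -0.59, edgeR adjusted p = 0.0606, and 0.0172 with the block). ZNF532, ZNF827 and ZNF687 were at -0.58, -0.47 and -0.45 (adjusted p = 0.0994, 0.160 and 0.148). ZNF410, an activator of the NuRD subunit gene CHD4, was at 0.17 (adjusted p = 0.538), and ZNF592, ZNF512B and ZNF608 lay between -0.16 and -0.13.

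For RNA, ribosome, spindle and other roles, 13 members were listed. Of these, ZNF593 was called higher and none lower, against 0.724% and 1.00% of all tested genes. The median was 0.05, or 0.11 with no scaling beyond the library total. ZNF598, a ubiquitin ligase that senses collided ribosomes, was higher in 4 of 4 lines at 44.4 ± 13.3 and 57.9 ± 10.8 CPM (SD, n = 4; 0.38, edgeR adjusted p = 0.371). ZNF451, a SUMO ligase, was lower in 4 of 4 at 94.9 ± 21.4 and 68.1 ± 11.3 CPM (SD, n = 4; -0.48, adjusted p = 0.171). ZNF638, ZNF622, ZNF346, ZNF330, ZNF277, ZNF318, ZNF385A, ZNF830, ZNF207 and ZNF326 lay between 0.23 and -0.37, with adjusted p of 0.138 or more.

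Of 9 developmental regulators tested, 7 were members, and ZNF516 and ZNF148 were called lower, against 1.00% of all tested genes. The median over the 9 was -0.41, against -0.17 over all members and -0.30 over the 90 members with the most reads. ZNF219, ZNF423 and ZNF703 were at -0.41, -0.35 and -0.34 (edgeR adjusted p = 0.179, 0.243 and 0.526), ZNF335 was at 0.13 (adjusted p = 0.755) and ZNF365 at 0.78 (adjusted p = 0.323). The other two, ZNF503 and ZNF536, were under the count threshold and were called lower with the block, as were 4.53% of all tested genes.

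**Figure D4:**
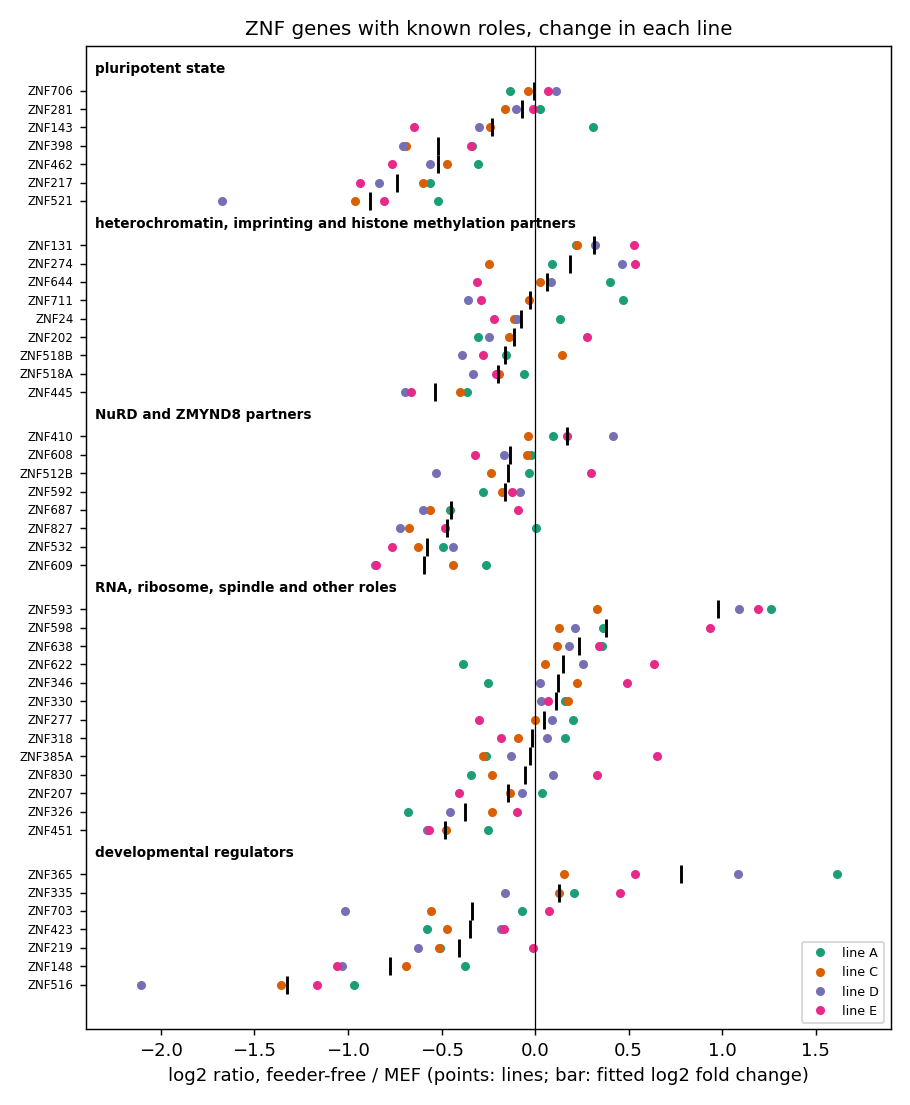
Log2 ratio of feeder-free over MEF (x axis) in each bESC line for the 44 members with known roles, grouped by role (y axis). Coloured points are the 4 lines and the black bar is the fitted log2 fold change; all 4 points lie below 0 in ZNF516, ZNF148, ZNF217 and ZNF521, and all 4 lie above 0 in ZNF593, where line C is the lowest.

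The complex through which KRAB proteins act was measured beside them. Of 35 co-repressor genes tested, 2 were called lower and none higher, against 1.00% and 0.724% of all tested genes. In 4 of 4 lines 14 were lower, against 20.7% of all tested genes and 27.5% of those at 30.2 to 719 CPM. SETDB1 had 74.0, 73.4, 71.8 and 67.0 CPM on MEF and 47.2, 52.8, 45.1 and 44.9 CPM feeder-free, without overlap (log2 fold change -0.59, SE 0.101, edgeR adjusted p = 0.0331). CBX5, the gene of HP1 alpha, fell from 1094 ± 136 to 672 ± 51.6 CPM (SD, n = 4; -0.70, edgeR adjusted p = 0.0403). TRIM28 itself had 1253 ± 80.6 and 1093 ± 133 CPM (SD, n = 4; -0.20, edgeR adjusted p = 0.441). The median of the 35 genes was -0.13. SETDB1 lay near the fold threshold, and its call was lost with relative log expression factors and with DESeq2, at -0.58 in each. With no scaling beyond the library total both calls were lost (edgeR adjusted p = 0.0515 for SETDB1 and 0.0550 for CBX5). When 1 library was left out, SETDB1 and CBX5 were each called in 1 of 8 fits, the fit without feeder-free line A.

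Beyond the culture condition, members differed between the bESC lines. In an edgeR test of the line terms, 16 members had an adjusted p under 0.05 (5.90%, against 11.8% of all tested genes). The member rule left out genes near absent in a line, while the filter on all tested genes did not, so these shares are not alike. With at least 10 reads in every library asked of all genes, 20 of 271 members and 1838 of 13889 genes differed. Of 12 tested ZNF symbols under the threshold, 3 differed in the first fit. The largest difference was in ZNF567, on chr18:46899698-46929606. Line A had 19 reads on MEF and 14 feeder-free, or 0.456 and 0.281 CPM. Lines C, D and E had 14.0, 13.4 and 13.7 CPM on MEF and 13.2, 10.9 and 7.70 CPM feeder-free. Line A was thus nearly without ZNF567 reads in both conditions (F = 92.5, edgeR adjusted p = 8.57e-05).

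ZNF277, on chr4:55985103-56119408, showed the opposite order. Line A had 96.3 and 111 CPM on MEF and feeder-free, line E 51.1 and 41.6 CPM, line C 26.2 CPM in both and line D 26.3 and 28.0 CPM. Lines C and D did not differ beyond the spread between their own libraries (F = 64.1, edgeR adjusted p = 0.000273). ZNF32 was 30.1 CPM in line A and 27.3 in line E over both conditions, against 14.7 in line C and 10.9 in line D (edgeR adjusted p = 0.00833). ZNF581 was 8.88 and 10.1 CPM in lines A and E and 4.84 and 3.40 in C and D (adjusted p = 0.0115), and ZNF135 was 11.6 CPM in line A and 4.99 to 6.58 in the others (adjusted p = 0.0203).

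**Figure D5:**
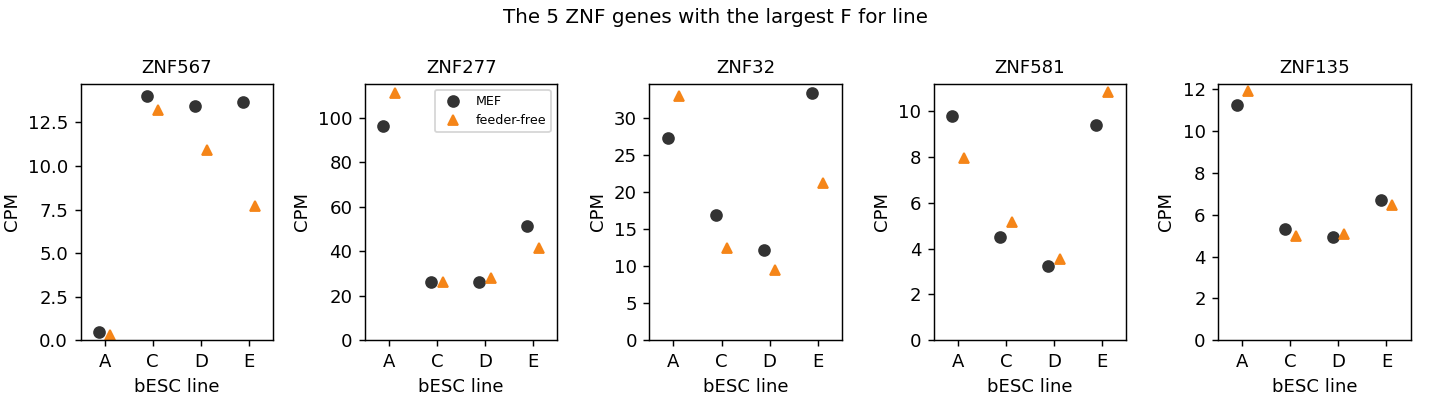
CPM (y axes, from 0) of the 5 ZNF genes with the largest F for line, in each bESC line (x axis), on MEF (circles) and feeder-free (triangles). ZNF567 is near 0 in line A in both conditions, and ZNF277 is highest there.

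Of the 16 line-differing members, 8 had lines A and E above lines C and D (50%) and 5 had the reverse (31.25%). Among the 1865 tested genes that differed between lines, 857 (46.0%) and 589 (31.6%) did. The members thus lay near the shares of all line-differing genes. The remaining line-differing members were ZNF660, ZNF75D, ZNF461, ZNF260, ZNF114, ZNF569, ZNF786, ZNF112, ZNF704, ZNF462 and ZNF280D, with ratios of highest to lowest line between 1.67 and 4.21.

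The members lay on 28 chromosomes, with 82 of 271 on chromosome 18, 24 on chromosome 25, 22 on chromosome 7, 13 on chromosome 17 and 12 on chromosome 4. Neighbouring members no more than 200000 bases apart formed 11 runs of at least 5 genes, which together held 91 members. The longest run, from ZNF146 to ZNF345 on chromosome 18, held 17 members and 4 of the 16 line-differing ones (ZNF567, ZNF461, ZNF260 and ZNF569). This was 23.5% of the run, against 5.90% of all members and 11.8% of all tested genes. In the annotation ZNF382 overlaps both ZNF461 and ZNF260, and ZNF569 overlaps VN2R415P, so these are not clearly separate signals. The run's median log2 ratio was 0.14 in line A, -0.06 in line C, -0.03 in line D and -0.71 in line E. The run from ZNF283 to ZNF180 on the same chromosome, with 8 members, had a median log2 fold change of 0.10, and 3 of its 8 members were below 0. Neighbours with near-identical fingers can share reads, and how many reads of these genes were removed for mapping to several places is not known from the counts.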

How the data were processed

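RNA of 8 libraries (4 bESC lines on MEF and feeder-free at 5% oxygen) was analysed; libraries from higher oxygen and from MEF alone were not analysed here. The deposited values are raw read counts per gene made by the authors. They trimmed reads with Trimmomatic, aligned them with STAR to ARS-UCD2.0 and removed optical duplicates and alignments of mapping quality under their limit. Counting was done with featureCounts (Subread 1.6.2). The study also describes removing reads of a MEF sample that aligned to the bovine genome from the counts on MEF. Whether the deposited counts hold this step could not be told from the values. Strand use in counting is not given in the sources used here, so overlapping genes cannot be separated. Of 32640 rows, 3 had no values. Totals were 44268717 to 102351560 counts.

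Here, edgeR 4.0.16 (R 4.3.3; filterByExpr, TMM, quasi-likelihood test, Benjamini-Hochberg over 15744 genes) compared conditions without a pairing term, as the study's methods name none; a gene was called at adjusted p under 0.05 and fold change of at least 1.5. A second fit added line as a block, and its 3 line terms were tested together. The pairing follows from the same cell lines in both conditions. Deviations of same-line libraries from their condition means correlated at 0.582, 0.557, 0.664 and 0.421 over genes in lines A, C, D and E. Log2 ratios within lines used a prior count of 2. The test was checked on simulated data. DESeq2 1.42.0, limma 3.58.1 (voom) and other alternatives are in the closing section. Library pairs within a condition differed by at least 34.3 chi-square per degree of freedom, so none was a duplicate.

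Members and gene lists were chosen with earlier results of these data known. Named genes were the called members, the 5 members with the largest change in each direction of the same sign in 4 of 4 lines, the 5 with the highest and the 1 with the lowest mean CPM, the 5 with the largest F for line, the members of the role lists and the called co-repressor genes and zinc finger genes named otherwise. Gene positions are from RefSeq (ARS-UCD2.0), where all 271 members matched by symbol; transcript lengths and protein domains were not used here.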

Additional observations from a re-analysis of the deposited data

Results flagged for a closer look

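Of 118 groups of 4 libraries examined for the named ZNF genes, 6 held a library far from the other 3, against 5.9 that chance gives at about 1 in 20. On the log2 CPM scale, ZNF641 in feeder-free line D was 2.65, with the other feeder-free lines at 3.36 to 3.43. ZNF567 in line A was -1.02 on MEF, against 3.75 to 3.81 in the other lines, and -1.66 feeder-free, against 2.95 to 3.72. ZNF445 in feeder-free line C was 6.47, against 6.31 to 6.33. ZNF131 in line E on MEF was 4.33, against 4.67 to 4.73. ZNF330 in feeder-free line D was 5.50, against 5.70 to 5.71.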

How the results depend on the processing

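The median log2 fold change of the members stayed below 0 in every setting run, from -0.22 without feeder-free line A to -0.13 with no scaling beyond the library total. The unpaired counts depended more on the test. Against 1 higher and 7 lower members, the replicate block gave 3 and 22, DESeq2 gave 2 and 18, and a fold change of at least 2 gave 0 and 2. Over all tested genes the same settings gave 869 and 713, 695 and 516, and 70 and 48, against 114 and 158. The likelihood ratio test gave 13 lower members and no scaling 3, with 389 and 91 lower over all tested genes. Leaving out 1 library gave 0 to 1 higher and 0 to 9 lower, and only the fit without feeder-free line A made calls among members. Over all tested genes that fit called 259 higher and 231 lower, and the other 7 such fits called 0 to 1 higher and 0 to 5 lower. With the block, leaving out both libraries of a line gave 1 to 2 higher and 12 to 31 lower, with the fewest without line D (this alternative and the block with other scalings were chosen after seeing the data). Over all tested genes these fits called 376 to 918 higher and 366 to 733 lower. The 31 lower members came without line A, where 733 of all tested genes were called lower, against 713 with all lines. The count of line-differing members was 16, and 39 by the likelihood ratio test (1865 and 3704 over all tested genes). No named gene reversed a called direction. The unpaired counts stayed within 1.5 times under RLE size factors, limma-voom and the stricter count filter, and so did the count of line-differing members under RLE size factors and that filter. The cause of these differences was not tested. Fold thresholds do not alter a gene's log2 fold change. With 4 libraries per condition, precision was limited for members of few reads, such as ZNF619 and ZNF365.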

Other observations

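Zinc finger genes with other names were measured as a separate list of 44 tested genes, with 1 called higher and 1 called lower, against 0.724% and 1.00% of all tested genes, and a median log2 fold change of -0.15. ZFP36, which binds AU-rich elements and speeds mRNA decay and is not a C2H2 protein, rose. It had 11.4, 12.7, 15.4 and 11.4 CPM in lines A, C, D and E on MEF and 20.8, 38.4, 61.9 and 50.7 CPM feeder-free (log2 fold change 1.76, SE 0.299, edgeR adjusted p = 0.0331). ZKSCAN1, which joins KRAB and SCAN domains, fell from 23.3 ± 3.14 to 13.0 ± 1.91 CPM (SD, n = 4; -0.84, edgeR adjusted p = 0.0426). ZFP42, known as the pluripotency marker REX1, had 3.00, 2.83, 5.14 and 1.45 CPM on MEF and 14.7, 5.48, 4.94 and 6.83 CPM feeder-free. It was higher in 3 of 4 lines (1.36, edgeR adjusted p = 0.126, and 0.0412 with the block).

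Among the 23 symbols under the threshold, chosen here after their values were seen, ZNF555 had 247 and 379 reads in line A and 179 and 358 in line E on MEF and feeder-free, but 0 and 2 in line C and 12 and 3 in line D. Among members, also chosen after their values were seen, ZNF771 had 169 reads in feeder-free line C and 3035 to 5505 in the other feeder-free lines. ZNF214 had 24 reads in feeder-free line D and 159 to 259 in the other feeder-free lines.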
